A study of Mus musculus with 6 samples.

Results

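The 10 enzymes described here make serine, one-carbon units, asparagine and alanine: Phgdh, Psat1, Psph, Shmt1, Shmt2, Mthfd2, Mthfd1l, Aldh1l2, Asns and Gpt2. They were taken by name, as every probe whose RefSeq accession belongs to one of these genes, which gave 15 probes for the 10 genes among 19021 genes tested. Messenger RNA of mouse pancreatic islets, the clusters of hormone cells that hold the insulin-secreting beta cells, was measured on 6 Agilent 1-colour microarrays.

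All mice were male, 16 weeks old and of ICR background, and all carried Trsp alleles flanked by loxP sites. Trsp encodes the transfer RNA that brings selenocysteine into selenoproteins. TrspFF, the control, is TrspFlox/Flox without a Cre gene in its label (2 arrays). Trsp-RIPKO is TrspFlox/Flox::RIP-Cre (2 arrays), in which Cre is driven by the rat insulin promoter, and Trsp-Ins1KO is TrspFlox/Flox::Ins1-Cre (2 arrays), in which Cre is driven from Ins1, a mouse insulin gene. No group carried Cre with intact Trsp, so an effect of Cre and an effect of Trsp deletion cannot be told apart. Whether the arrays of a group hold RNA of different mice is not in the labels, and the p-values speak only of the spread from array to array, which may be technical. Whole islets were measured, and in such bulk RNA fewer cells of a type and less RNA per cell cannot be told apart.

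As background, serine is built from a glycolytic intermediate by Phgdh, Psat1 and Psph in turn. Serine hydroxymethyltransferases (Shmt1 in the cytosol, Shmt2 in mitochondria) then pass a carbon from serine to tetrahydrofolate. Mitochondrial folate enzymes (Mthfd2, Mthfd1l, Aldh1l2) carry it on to formate, which serves the making of purines, thymidylate and methionine, or to carbon dioxide. Several of these genes, with Asns and Chac1, are textbook targets of ATF4, the transcription factor whose translation rises when the initiation factor eIF2alpha is phosphorylated under amino acid shortage or endoplasmic reticulum stress.

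Before the results, the names of some arrays need a caution. The authors also deposited a table of normalised values, and over 19486 probes the 2 columns it calls TrspFF matched the Trsp-Ins1KO scans (r = 1.0) rather than the TrspFF scans (r = -0.268 and -0.468), and the reverse held for the 2 columns it calls Trsp-Ins1KO. Columns and scans of Trsp-RIPKO matched. The labels do not settle which naming is right, and no probe for Trsp was found that could check it. Groups below are those of the scanner files. If the names of the table are right, every difference between Trsp-Ins1KO and TrspFF turns its sign, and the comparison of Trsp-RIPKO with TrspFF becomes that of Trsp-RIPKO with the arrays called Trsp-Ins1KO here.

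The arrays differed in brightness and slide. The 75th percentile of the processed signal was 247.2 and 218.1 in the TrspFF islets, 215.2 and 203.0 in those of Trsp-RIPKO and 121.9 and 110.7 in those of Trsp-Ins1KO. No probe was saturated, and 51.4% to 61.0% of probes were well above background. TrspFF and Trsp-Ins1KO shared a slide, whereas the Trsp-RIPKO arrays lay alone on another, so slide and genotype cannot be told apart in any comparison with Trsp-RIPKO. Levels below are log2 of the processed signal minus the array's 75th percentile, so that 0 is the level of a probe at that percentile. Levels of different probes cannot be ranked against each other. Differences come from limma over all 6 arrays, with its standard error (SE) and a Benjamini-Hochberg adjusted p over all 19021 genes, and a gene was called at an adjusted p under 0.05.

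Of the 10 enzymes, 9 were well above background on all 6 arrays. Shmt1 was well above background only on the Trsp-RIPKO arrays and entered the test through that group alone, so its call is no support for the rest. In Trsp-Ins1KO islets 8 of the 10 enzymes were higher than in TrspFF and none was lower, where 23.0% of all tested genes were called higher and 23.0% lower (45.9% in either direction). The arrays of these groups did not overlap for 8 of the 10 enzymes, and for 76.9% of all genes. Their median log2 difference was 0.77 (0.83 without Shmt1), against -0.01 over all genes. In Trsp-RIPKO islets 4 were higher than in TrspFF, Shmt1 among them, and none was lower, where 18.9% of all genes were called higher and 17.5% lower (36.4% in either direction). Here too 8 enzymes did not overlap, beside 77.4% of all genes. Their median was 0.23 (0.21 without Shmt1), against 0.00 over all genes. Set directly against Trsp-RIPKO, 7 enzymes were higher in Trsp-Ins1KO and 1 was lower (Shmt1, whose sign turned under another background correction), where 19.3% of all genes were called higher and 19.4% lower (38.7% in either direction). All 10 enzymes were without overlap here, beside 71.8% of all genes. The comparisons share arrays and are given side by side, not as separate evidence. The enzymes were chosen with earlier results of these data known, so their counts are no independent test. With 1 array left out in turn, the count of enzymes called higher was 5 to 8 in Trsp-Ins1KO against TrspFF, 2 to 4 in Trsp-RIPKO against TrspFF, and 2 to 5 in Trsp-Ins1KO against Trsp-RIPKO.

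**Figure D1:**
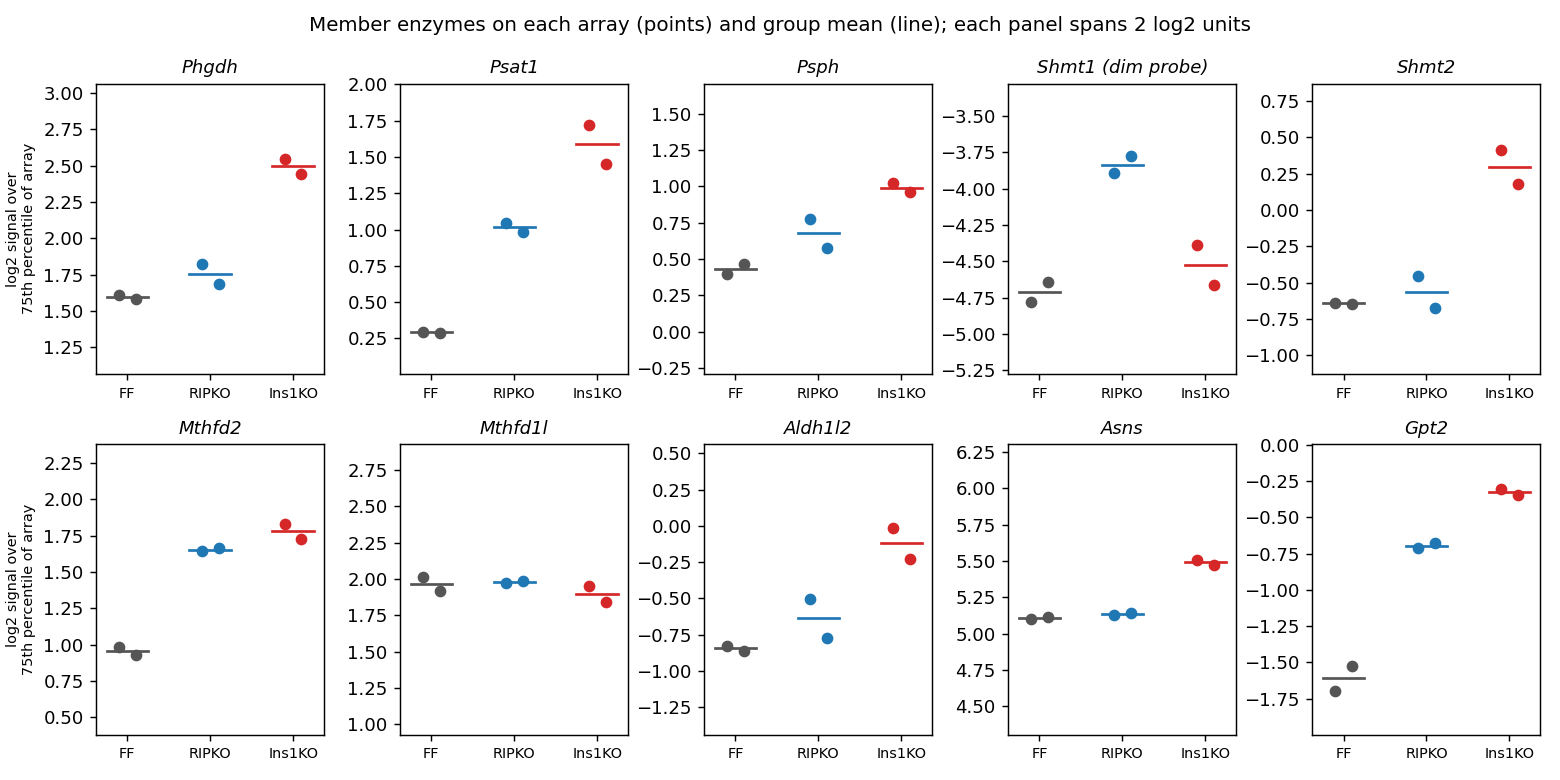
Level of each of the 10 enzymes on each array (points; log2 of the processed signal over the array's 75th percentile) with the group mean as a line, for the 2 arrays each of TrspFF, Trsp-RIPKO and Trsp-Ins1KO. Each panel spans 2 log2 units on its own axis, and 7 enzymes (Phgdh, Psat1, Psph, Shmt2, Aldh1l2, Asns and Gpt2) were called higher in Trsp-Ins1KO than in both other groups.

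The serine pathway begins with Phgdh, the dehydrogenase that takes 3-phosphoglycerate out of glycolysis. Its level was 1.61 and 1.58 in the TrspFF islets, 1.82 and 1.69 in those of Trsp-RIPKO and 2.55 and 2.44 in those of Trsp-Ins1KO. The 3 groups did not overlap, and the Trsp-Ins1KO arrays stood well above the other 4. Phgdh rose by 0.90 (SE 0.082, adjusted p = 0.00235) in Trsp-Ins1KO against TrspFF, which is 1.87-fold. Against Trsp-RIPKO the difference was 0.74 (adjusted p = 0.00366), and both calls held with any 1 array left out. For Trsp-RIPKO against TrspFF the difference was 0.16 (95% interval -0.05 to 0.37, adjusted p = 0.176). A dimmer Phgdh probe gave 0.79 (adjusted p = 0.00599), 0.78 (adjusted p = 0.0073) and 0.01 (adjusted p = 0.935) for the same 3 comparisons, so the probes of this gene gave the same calls.

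Psat1, the aminotransferase of the next step, draws its amino group from glutamate. Its level was 0.30 and 0.29 in the TrspFF islets, 1.04 and 0.99 in those of Trsp-RIPKO and 1.72 and 1.45 in those of Trsp-Ins1KO. The groups formed separate steps, lowest in TrspFF and highest in Trsp-Ins1KO. Psat1 rose by 1.29 (SE 0.106, adjusted p = 0.00201), or 2.45-fold, in Trsp-Ins1KO against TrspFF, close to the 2.43-fold rise of Gpt2. It rose by 0.72 (adjusted p = 0.0108), or 1.65-fold, in Trsp-RIPKO against TrspFF. This last call was lost without any single TrspFF or Trsp-RIPKO array, with adjusted p up to 0.069, while its direction stayed. The difference between the knockouts was 0.57 (adjusted p = 0.0134), and that call was lost without Trsp-RIPKO array 1 (adjusted p = 0.055) or array 2 (adjusted p = 0.067). The dimmer Psat1 probe rose by 1.38 (adjusted p = 0.00389) and 1.01 (adjusted p = 0.0131) against TrspFF in Trsp-Ins1KO and Trsp-RIPKO, and its difference between the knockouts was 0.37 (adjusted p = 0.127).

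Psph, the phosphatase that releases serine, moved less. Its level was 0.39 and 0.47 in the TrspFF islets, 0.78 and 0.58 in those of Trsp-RIPKO and 1.02 and 0.96 in those of Trsp-Ins1KO. The groups did not overlap, and the Trsp-RIPKO arrays were the farthest apart from each other. Psph rose by 0.56 (SE 0.093, adjusted p = 0.00851), or 1.48-fold, in Trsp-Ins1KO against TrspFF, a call lost without TrspFF array 1 (adjusted p = 0.059). In Trsp-RIPKO against TrspFF the difference was 0.25 (95% interval 0.01 to 0.48, adjusted p = 0.0915). Between the knockouts it was 0.31 with an adjusted p of 0.0494, and this call was lost in 5 of the 6 fits that left out 1 array, with adjusted p up to 0.16. The dimmer Psph probe gave 0.61 (adjusted p = 0.0196), 0.31 (adjusted p = 0.135) and 0.30 (adjusted p = 0.139) for Trsp-Ins1KO against TrspFF, Trsp-RIPKO against TrspFF and between the knockouts.

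Shmt2, the mitochondrial serine hydroxymethyltransferase, was at -0.64 and -0.64 in the TrspFF islets, -0.45 and -0.67 in those of Trsp-RIPKO and 0.41 and 0.18 in those of Trsp-Ins1KO. The Trsp-RIPKO arrays lay on either side of TrspFF, and both Trsp-Ins1KO arrays lay above all others. Shmt2 rose by 0.94 (SE 0.118, adjusted p = 0.00439), or 1.91-fold, against TrspFF and by 0.86 (adjusted p = 0.00618) against Trsp-RIPKO. Both calls held with any 1 array left out. Trsp-RIPKO differed from TrspFF by 0.08 (95% interval -0.22 to 0.38, adjusted p = 0.628), and its sign turned without Trsp-RIPKO array 1 (-0.03).

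Shmt1, the cytosolic enzyme, was near the limit of detection. Its brighter probe read -4.78 and -4.64 in the TrspFF islets, -3.89 and -3.78 in those of Trsp-RIPKO and -4.39 and -4.66 in those of Trsp-Ins1KO. Only the Trsp-RIPKO arrays were well above background, and the readings of the other groups overlapped each other. The difference of Trsp-RIPKO from TrspFF was therefore a bound of at least 1.45-fold (adjusted p = 0.00986), set against the lowest signal well above background. That call was lost without TrspFF array 1 (difference 0.81) or Trsp-RIPKO array 2 (difference 0.82). It was also lost with quantile normalisation (adjusted p = 0.058) and with a trended robust variance (adjusted p = 0.056). After the normexp background correction Shmt1 was still called (adjusted p = 0.0388), but the log2 difference was 0.20, which lies under that bound. No fold is given for Trsp-Ins1KO against TrspFF, where neither was well above background, nor between the knockouts, where the bound came under 1. The fit called Shmt1 lower in Trsp-Ins1KO than in Trsp-RIPKO (adjusted p = 0.0114), but after normexp the sign turned and it was called higher (adjusted p = 0.000336), so no direction is given. After normexp Shmt1 was also called higher in Trsp-Ins1KO than in TrspFF (0.59, adjusted p = 1.96e-06). The other Shmt1 probe was not well above background on any of the 6 arrays.

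**Figure D2:**
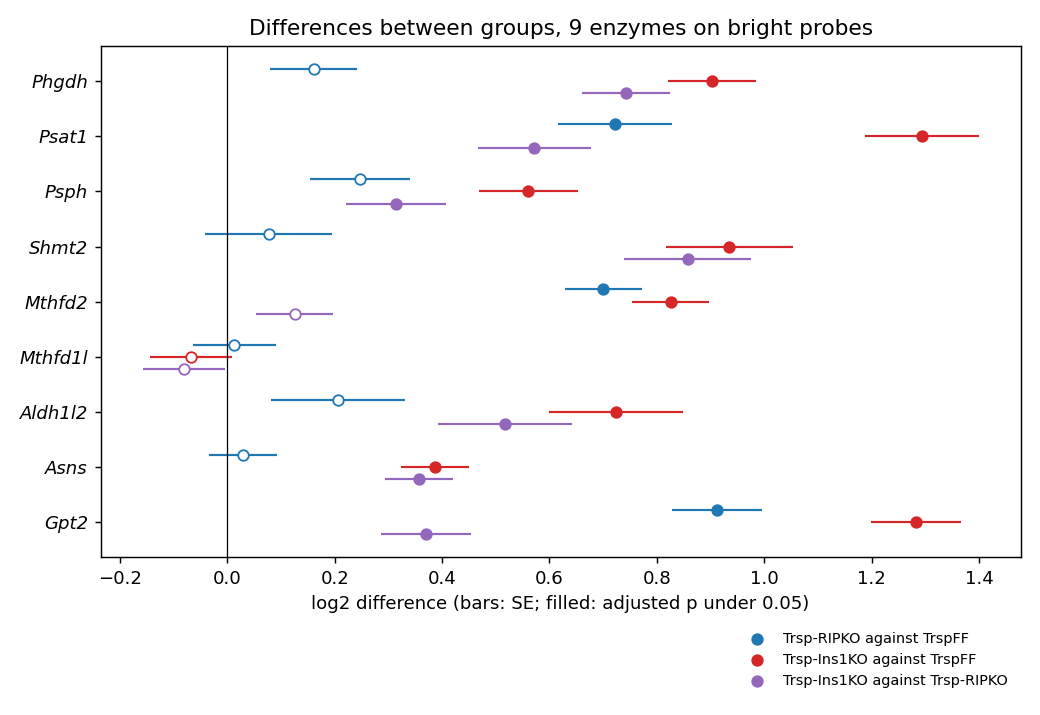
Log2 difference of the 9 enzymes on bright probes in the 3 comparisons (colours); points are limma estimates over 2 arrays a group, bars are 1 SE, and filled points were called at an adjusted p under 0.05. Shmt1 is left out because its probe was well above background in 1 group only. In Trsp-RIPKO against TrspFF, Psat1, Mthfd2 and Gpt2 were called, and in Trsp-Ins1KO against TrspFF all but Mthfd1l were.

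Among the mitochondrial folate enzymes, Mthfd2, the dehydrogenase and cyclohydrolase that is known for high expression in embryos and tumours, rose in both knockouts. Its level was 0.98 and 0.93 in the TrspFF islets, 1.64 and 1.67 in those of Trsp-RIPKO and 1.83 and 1.73 in those of Trsp-Ins1KO. The knockouts lay close together and well above TrspFF. Mthfd2 rose by 0.70 (SE 0.072, adjusted p = 0.00604), or 1.62-fold, in Trsp-RIPKO and by 0.83 (adjusted p = 0.00223), or 1.77-fold, in Trsp-Ins1KO. Both calls held with any 1 array left out. Between the knockouts the difference was 0.13 (95% interval -0.06 to 0.31, adjusted p = 0.218).

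Aldh1l2, the mitochondrial dehydrogenase that turns formyl-tetrahydrofolate into carbon dioxide with the making of NADPH, was at -0.82 and -0.86 in the TrspFF islets, -0.50 and -0.77 in those of Trsp-RIPKO and -0.01 and -0.23 in those of Trsp-Ins1KO. The groups did not overlap, though Trsp-RIPKO array 2 lay close to TrspFF. Aldh1l2 rose by 0.72 (SE 0.125, adjusted p = 0.00945), or 1.65-fold, in Trsp-Ins1KO against TrspFF, a call lost without TrspFF array 1 (adjusted p = 0.053) or array 2 (adjusted p = 0.055). Trsp-RIPKO differed from TrspFF by 0.21 (95% interval -0.11 to 0.53, adjusted p = 0.241). Between the knockouts it was 0.52 (adjusted p = 0.0284), lost without either TrspFF array (adjusted p up to 0.061), Trsp-RIPKO array 2 (adjusted p = 0.10) or Trsp-Ins1KO array 1 (adjusted p = 0.092).

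Mthfd1l, the mitochondrial synthetase that releases formate, was the exception, and its probes disagreed. The brighter probe, designed on transcript NM_172308, read 2.01 and 1.92 in the TrspFF islets, 1.97 and 1.99 in those of Trsp-RIPKO and 1.95 and 1.84 in those of Trsp-Ins1KO, with Trsp-RIPKO inside the TrspFF range and Trsp-Ins1KO overlapping it. Its differences from TrspFF were 0.01 (95% interval -0.18 to 0.21, adjusted p = 0.904) in Trsp-RIPKO and -0.07 (95% interval -0.26 to 0.13, adjusted p = 0.505) in Trsp-Ins1KO. The dimmer probe, designed on transcript NM_001170786, read -1.08 and -1.16 in the TrspFF islets, -0.70 and -0.72 in those of Trsp-RIPKO and -0.72 and -0.61 in those of Trsp-Ins1KO. On this probe all 4 knockout arrays lay above both TrspFF arrays. It rose by 0.41 (adjusted p = 0.0183) in Trsp-RIPKO and by 0.46 (adjusted p = 0.0093) in Trsp-Ins1KO when every probe was fitted by itself. Whether the probes read different transcripts of the gene was not tested.

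**Figure D3:**
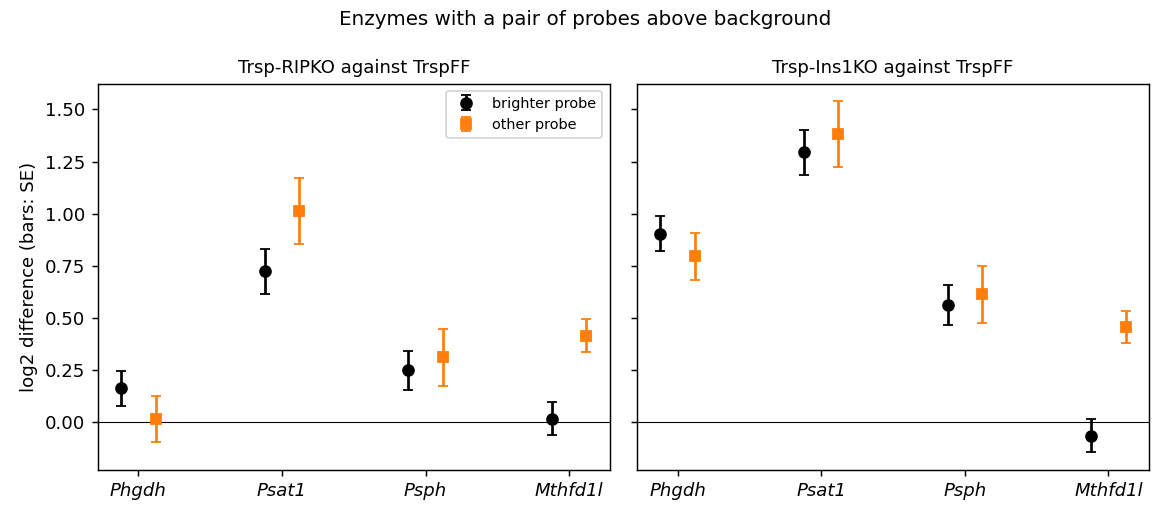
Log2 difference from TrspFF of the 4 enzymes with a pair of probes well above background (circles, the brighter probe; squares, the other probe; bars, 1 SE of the fit) in Trsp-RIPKO (left) and Trsp-Ins1KO (right), each over 2 arrays a group. The probes of Phgdh and Psph lie close together. Those of Psat1 share a direction, at 0.72 and 1.01 in Trsp-RIPKO and at 1.29 and 1.38 in Trsp-Ins1KO. Those of Mthfd1l differ, at 0.01 and 0.41 in Trsp-RIPKO and at -0.07 and 0.46 in Trsp-Ins1KO.

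Asns makes asparagine from aspartate with the amide nitrogen of glutamine. Its promoter holds the best-known amino acid response element, to which ATF4 binds with a C/EBP partner, and it is shown because, of the 9 enzymes with a promoter entry, Asns was the one whose promoter held the core letters of that element. The line below is the 250 bases before the Asns start (RefSeq, GRCm38.p6, chr6:7693210-7693459, minus strand, written 5′ to 3′ along the gene), with the match to TGATGNAA in capitals.
Asns: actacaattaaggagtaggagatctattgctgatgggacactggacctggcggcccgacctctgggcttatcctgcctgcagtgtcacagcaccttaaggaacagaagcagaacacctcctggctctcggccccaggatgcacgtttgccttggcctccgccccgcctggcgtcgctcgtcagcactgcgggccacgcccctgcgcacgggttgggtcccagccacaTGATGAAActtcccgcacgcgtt
The match, TGATGAAA, lies on the strand of the gene and begins 23 bases before its start.

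Asns read 5.10 and 5.11 in the TrspFF islets, 5.13 and 5.14 in those of Trsp-RIPKO and 5.51 and 5.48 in those of Trsp-Ins1KO. The arrays of each group agreed closely, and only Trsp-Ins1KO stood apart. Asns rose by 0.39 (SE 0.063, adjusted p = 0.00814), or 1.31-fold, in Trsp-Ins1KO against TrspFF, the smallest of the 8 rises. That call was lost without TrspFF array 1 (adjusted p = 0.064) or array 2 (adjusted p = 0.056), and with another background correction (normexp), which gave 0.11 (adjusted p = 0.22). Against Trsp-RIPKO the difference was 0.36 (adjusted p = 0.0118), lost without Trsp-RIPKO array 1 (adjusted p = 0.054) or array 2 (adjusted p = 0.051). In Trsp-RIPKO against TrspFF it was 0.03 (95% interval -0.13 to 0.19, adjusted p = 0.733).

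Gpt2, the mitochondrial alanine aminotransferase, which moves an amino group between glutamate and alanine, was at -1.69 and -1.52 in the TrspFF islets, -0.71 and -0.68 in those of Trsp-RIPKO and -0.30 and -0.35 in those of Trsp-Ins1KO. The groups formed 3 separate steps in the same order as Psat1. Gpt2 rose by 0.91 (SE 0.084, adjusted p = 0.00495), or 1.88-fold, in Trsp-RIPKO. It rose by 1.28 (adjusted p = 0.00135), or 2.43-fold, in Trsp-Ins1KO, and both calls held with any 1 array left out. Between the knockouts the difference was 0.37 (adjusted p = 0.0236), lost without any single Trsp-RIPKO or Trsp-Ins1KO array (adjusted p up to 0.096).

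The letters TGATGNAA were searched on both strands in the RefSeq promoters (250 bases before to 50 after the start), which were found for 9 of the 10 enzymes. They occurred in 1 of those 9, Asns, and in 3.97% of all 32851 promoters of the table. By gene, 2.93% of the 10662 tested genes with a promoter entry held them in any of their promoters. Of 19 ATF4 pathway genes outside the set with a promoter entry, 6 held the motif: Atf3, Trib3, Chac1, Nupr1, Vldlr and Jdp2. Atf4, Atf5, Cebpb, Sesn2, Ddit4, Ppp1r15a and Stc2, which were called higher in Trsp-Ins1KO than in TrspFF, held no match. The matches of Chac1 and Nupr1, which rose in Trsp-Ins1KO (see their values further on), are shown for comparison with Asns, with the match in capitals and reading on the opposite strand (GRCm38.p6, chr2:119351029-119351076, plus strand, and chr7:126625553-126625600, minus strand).
Chac1: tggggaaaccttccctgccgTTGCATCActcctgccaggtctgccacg
Nupr1: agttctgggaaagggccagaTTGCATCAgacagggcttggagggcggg
These matches begin 193 and 110 bases before the respective starts.

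Among cytosolic counterparts and close relatives of the enzymes, Mthfd1 and Mthfd2l fell and Aldh1l1 rose. Mthfd1, the cytosolic enzyme that joins the activities split between Mthfd2 and Mthfd1l in mitochondria, fell by 0.85 (SE 0.068, adjusted p = 0.00401) in Trsp-RIPKO and fell by 0.65 (adjusted p = 0.00301) in Trsp-Ins1KO against TrspFF. Mthfd2l, the relative of Mthfd2, fell by 0.46 (adjusted p = 0.0322) in Trsp-Ins1KO and fell by 0.59 (adjusted p = 0.0213) in Trsp-RIPKO. The Mthfd2l calls were lost without any single TrspFF or Trsp-RIPKO array in Trsp-RIPKO (adjusted p up to 0.10), and without TrspFF array 1, TrspFF array 2 or Trsp-Ins1KO array 2 in Trsp-Ins1KO (adjusted p up to 0.15). Aldh1l1, the cytosolic counterpart of Aldh1l2, rose by 1.26 (adjusted p = 0.0011) in Trsp-Ins1KO and by 0.92 (adjusted p = 0.00401) in Trsp-RIPKO. Its signal was low, with a mean of -3.91 in TrspFF, though well above background in every group. Over the alternative fits, other than the authors' table under its own names, these rises ranged from 0.81 to 1.31 and from 0.30 to 0.97. Gpt, the cytosolic alanine aminotransferase, differed from TrspFF by 0.16 (adjusted p = 0.214) in Trsp-Ins1KO and -0.21 (adjusted p = 0.124) in Trsp-RIPKO.

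The surrounding pathways were mixed. Their counts stand beside 23.0% of all genes called higher and 23.0% lower in Trsp-Ins1KO against TrspFF. In Trsp-RIPKO against TrspFF the shares were 18.9% and 17.5%. Of 14 tested genes of serine and glycine metabolism outside the set, 5 rose and 2 fell in Trsp-Ins1KO against TrspFF (median 0.19), and 3 rose and 5 fell in Trsp-RIPKO (median 0.08). In Trsp-Ins1KO the largest rises were those of Slc6a9, a glycine transporter (1.60, adjusted p = 0.0011), Gldc, the decarboxylase of the glycine cleavage system (0.94, adjusted p = 0.00295), and Cbs, which joins serine to homocysteine (0.52, adjusted p = 0.00433). Both genes that fell there, Dld (-0.53, adjusted p = 0.0038) and Gcsh (-0.30, adjusted p = 0.0169), encode other subunits of the glycine cleavage system, Dld also serving the pyruvate dehydrogenase complex. The Gcsh call was lost without either TrspFF array (adjusted p up to 0.11).

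In Trsp-RIPKO the largest rises of that list were Slc6a9 (0.65, adjusted p = 0.0106), Tdh, the threonine dehydrogenase (0.59, adjusted p = 0.0223), and Gldc (0.50, adjusted p = 0.0186). The largest falls were Gcat, which splits the product of Tdh into glycine (-0.61, adjusted p = 0.00969), Srr, the serine racemase (-0.36, adjusted p = 0.0162), and Gcsh (-0.30, adjusted p = 0.0237). The probes of Srr disagreed in sign, the other giving 0.33. The calls of Slc6a9 and Gcat were lost without TrspFF array 1, TrspFF array 2 or Trsp-RIPKO array 2 (adjusted p up to 0.069), and those of Tdh, Gldc, Srr and Gcsh without any single array of either group (adjusted p up to 0.145).

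Of 17 tested folate and one-carbon genes outside the set, 6 rose and 4 fell in Trsp-Ins1KO against TrspFF (median 0.12), and 2 rose and 3 fell in Trsp-RIPKO (median 0.05). Beside Aldh1l1, Mtr, methionine synthase, rose by 0.81 (adjusted p = 0.00256) in Trsp-Ins1KO, and Slc46a1, a folate transporter, rose by 0.80 (adjusted p = 0.00504), with 0.53 on another probe. Mthfs, which returns folinic acid to the folate pool, fell by 0.93 (adjusted p = 0.00186) in Trsp-Ins1KO. Tyms, thymidylate synthase, was called lower there (adjusted p = 0.00799) but was not well above background in Trsp-Ins1KO, and its call was lost without TrspFF array 1 while its sign turned after normexp (0.40). In Trsp-RIPKO, Folr1, a folate receptor, fell by 1.01 (adjusted p = 0.00362).

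Of 13 tested genes of the methionine cycle, 1 rose and 4 fell in Trsp-Ins1KO against TrspFF (median -0.22), and none rose and 4 fell in Trsp-RIPKO (median -0.33). The riser was Bhmt, betaine-homocysteine methyltransferase, which was not well above background in TrspFF and at least 4.05-fold higher in Trsp-Ins1KO (adjusted p = 0.00163). Over the alternative fits, other than the authors' table under its own names, the Bhmt log2 difference ranged from 1.10 to 3.85. The lowest value lies under the bound, which holds for the main fit only. In Trsp-Ins1KO, Mtap, of the methionine salvage pathway, was not well above background and at least 1.503-fold lower (adjusted p = 0.0496), a call lost in 5 of the 6 fits with 1 array left out (adjusted p up to 0.19) and turned in sign after normexp (0.30). Ahcyl1, a relative of the hydrolase of S-adenosylhomocysteine, fell by 0.75 there (adjusted p = 0.00549), with -0.35 on another probe. Enoph1, also of methionine salvage, fell by 0.48 (adjusted p = 0.00901), a call lost without TrspFF array 1 (adjusted p = 0.065). In Trsp-RIPKO the largest falls were Mat2b, the regulatory subunit of the synthetase of S-adenosylmethionine (-0.57, adjusted p = 0.0165), Enoph1 (-0.49, adjusted p = 0.0137) and Ahcyl1 (-0.40, adjusted p = 0.037, with 0.02 on another probe). All 3 calls were lost without any single array of either group (adjusted p up to 0.18).

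Of 13 purine synthesis genes, which use the one-carbon units, 3 rose and 3 fell in Trsp-Ins1KO (median -0.14), and none rose and 2 fell in Trsp-RIPKO (median -0.04). In Trsp-Ins1KO the risers were Impdh1, of the guanine branch (0.82, adjusted p = 0.00305), Adssl1, of the adenine branch (0.51, adjusted p = 0.00983), and Gart, which takes up a one-carbon unit (0.49, adjusted p = 0.0135). The genes that fell were Ppat, the committed step (-0.57, adjusted p = 0.0145), Paics (-0.52, adjusted p = 0.00519) and Prps2, a phosphoribosyl pyrophosphate synthetase, which was not well above background in Trsp-Ins1KO and at least 1.19-fold lower (adjusted p = 0.00998). Prps2 turned in sign after normexp (0.34) and lost its call without TrspFF array 1, as did Adssl1 (adjusted p up to 0.066), and Ppat and Gart lost theirs without either TrspFF array (adjusted p up to 0.084). In Trsp-RIPKO, Prps1 (-0.35, adjusted p = 0.033) and Adssl1 (-0.31, adjusted p = 0.0485) fell, the first call lost without any single array of either group (adjusted p up to 0.16) and the second in all 6 fits with 1 array left out (adjusted p up to 0.22).

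Of 18 tested genes of glutamate, aspartate, proline and transamination, 8 rose and 4 fell in Trsp-Ins1KO against TrspFF (median 0.20), and none rose and 5 fell in Trsp-RIPKO (median -0.09). In Trsp-Ins1KO, Aldh18a1, the enzyme that starts proline synthesis, rose by 0.78 (adjusted p = 0.00394), and Glud1, glutamate dehydrogenase, rose by 0.89 (adjusted p = 0.00517) on its brighter probe, while another probe gave 0.24. Bcat1, the cytosolic branched-chain aminotransferase, was not well above background in TrspFF and at least 3.39-fold higher in Trsp-Ins1KO (adjusted p = 0.00673). Over the alternative fits, other than the authors' table under its own names, its log2 difference ranged from 1.02 to 3.70. The lowest value lies under the bound, which holds for the main fit only. Pycrl, a pyrroline-5-carboxylate reductase, fell by 1.06 (adjusted p = 0.00379) in Trsp-Ins1KO, with -0.57 on another probe. Glul, glutamine synthetase, fell by 0.57 (adjusted p = 0.006) in Trsp-Ins1KO and by 0.64 (adjusted p = 0.00872) in Trsp-RIPKO, the latter call lost without TrspFF array 1 (adjusted p = 0.063). Got2, the mitochondrial aspartate aminotransferase, fell by 0.39 (adjusted p = 0.0485) in Trsp-Ins1KO and by 0.64 (adjusted p = 0.0174) in Trsp-RIPKO. Its calls were lost without either TrspFF array and without array 2 of the knockout concerned (adjusted p up to 0.17 and 0.094). Agxt2, a mitochondrial aminotransferase of alanine and glyoxylate, fell by 0.63 (adjusted p = 0.034) in Trsp-RIPKO, a call lost without any single array of either group (adjusted p up to 0.145).

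**Figure D4:**
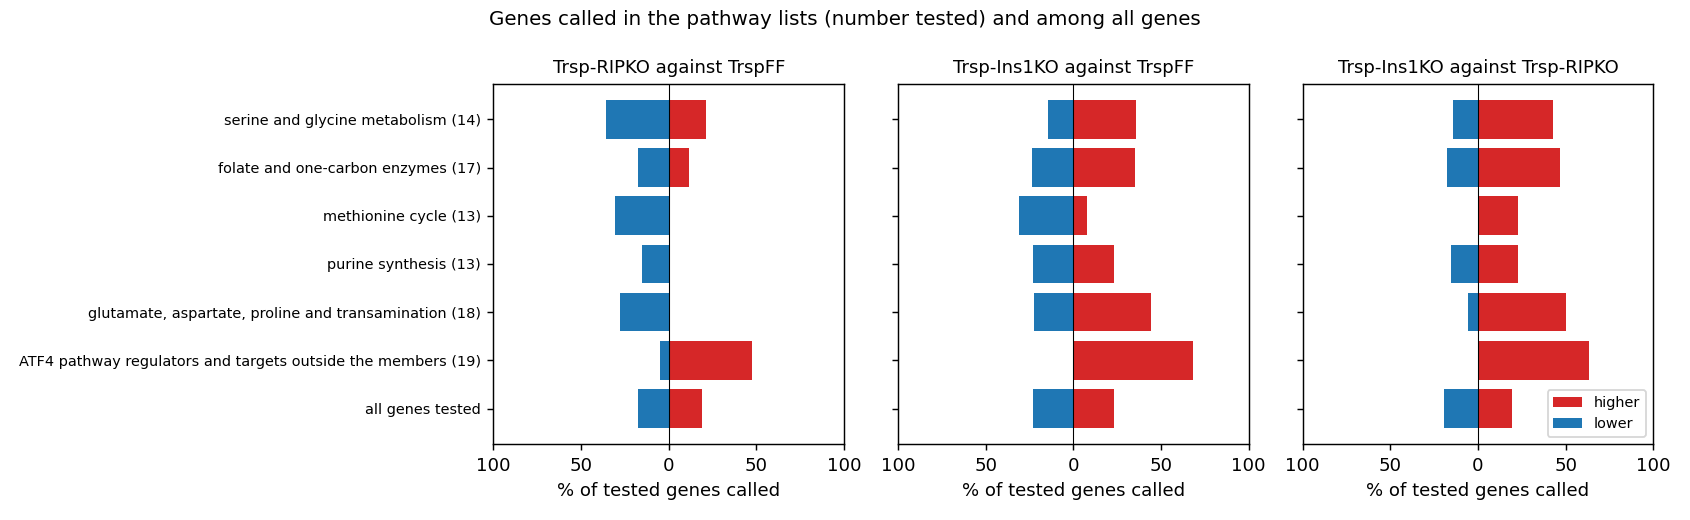
Percent of the tested genes of each list (number tested in brackets) called higher (red, to the right) or lower (blue, to the left) in each comparison, 2 arrays a group, with all 19021 tested genes in the bottom bar. None of the lists holds any of the 10 enzymes; the ATF4 pathway list had 13 of 19 genes higher and none lower in Trsp-Ins1KO against TrspFF.

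Regulators and other targets of the ATF4 pathway were tested as a list of genes outside the set, chosen with earlier results of these data known. Of 19 tested, 13 rose and none fell in Trsp-Ins1KO against TrspFF (median 0.64), and 9 rose and 1 fell in Trsp-RIPKO (median 0.16). Over all genes, 23.0% were called higher and 23.0% lower in Trsp-Ins1KO, and 18.9% and 17.5% in Trsp-RIPKO. Atf4 itself rose by 0.61 (SE 0.070, adjusted p = 0.00356) in Trsp-Ins1KO and differed by -0.02 (adjusted p = 0.83) in Trsp-RIPKO. That last difference became 0.33 after the normexp correction and 0.03 after quantile normalisation, so no direction is given for it. Trib3, a pseudokinase that restrains ATF4, rose by 2.20 (adjusted p = 0.000533) in Trsp-Ins1KO and by 0.84 (adjusted p = 0.00712) in Trsp-RIPKO, the latter call lost without TrspFF array 1 (adjusted p = 0.054). Chac1, which degrades glutathione, rose by 1.78 (adjusted p = 0.00103) and 0.63 (adjusted p = 0.0126) in the same order, the second call lost without TrspFF array 1, TrspFF array 2 or Trsp-RIPKO array 2 (adjusted p up to 0.074). Nupr1, a small stress-induced nuclear protein, rose by 1.96 (adjusted p = 0.000817) in Trsp-Ins1KO, and Sesn2, which restrains mTORC1 under amino acid shortage, rose by 0.73 (adjusted p = 0.00454) in Trsp-RIPKO. The single gene that fell was Ddit3, which encodes CHOP, a partner of ATF4 in prolonged stress. It fell by 0.42 (adjusted p = 0.0454) in Trsp-RIPKO, a call lost without any single TrspFF or Trsp-RIPKO array (adjusted p up to 0.17), and differed by -0.13 (adjusted p = 0.398) in Trsp-Ins1KO.

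Set directly against Trsp-RIPKO, Trsp-Ins1KO had 12 of the 19 ATF4 pathway genes higher and none lower (median 0.70). Nupr1 was higher by 1.505 (adjusted p = 0.00121), Trib3 by 1.36 (adjusted p = 0.00132), Chac1 by 1.14 (adjusted p = 0.00227) and Atf4 by 0.63 (adjusted p = 0.00366), though Atf4 differed by 0.00 after the normexp correction. Over all genes, 19.3% were called higher and 19.4% lower in this comparison. Of 14 serine and glycine genes outside the set, 6 were higher and 2 lower, and of 17 folate and one-carbon genes 8 and 3. Of 13 methionine cycle genes 3 were higher and none lower, and of 13 purine synthesis genes 3 and 2. Of 18 genes of glutamate, aspartate, proline and transamination, 9 were higher and 1 lower. Bhmt, not well above background in Trsp-RIPKO, was at least 3.69-fold higher (adjusted p = 0.00198). This bound too holds for the main fit only, as the Bhmt log2 difference ranged from 0.92 to 3.33 over the alternative fits. Tdh, Tyms and Prps2, not well above background in Trsp-Ins1KO, were called lower there by bounds of at least 1.05-fold (adjusted p = 0.0145), 1.10-fold (adjusted p = 0.00331) and 1.19-fold (adjusted p = 0.0116). All 3 turned in sign after normexp, and the Tdh call was lost without Trsp-RIPKO array 2 (adjusted p = 0.070).

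Other cell types moved with the groups, and their part in the enzyme results was not tested. Against TrspFF, 18.9% of all genes were called higher and 17.5% lower in Trsp-RIPKO, and 23.0% each way in Trsp-Ins1KO. Of 22 tested acinar markers, 20 were higher in Trsp-RIPKO and 17 in Trsp-Ins1KO than in TrspFF. Their summed level, in multiples of the 75th percentile, was 23.1 to 23.8 in TrspFF, 44.1 to 48.2 in Trsp-RIPKO and 39.3 to 41.8 in Trsp-Ins1KO, while Ptf1a, Cuzd1 and Pnliprp2 were not well above background. Of 16 tested dividing cell markers, 12 were higher in Trsp-RIPKO, with sums of 9.37 to 9.38 in TrspFF, 13.8 to 14.0 in Trsp-RIPKO and 8.80 to 9.81 in Trsp-Ins1KO. Top2a and Bub1, among the 12, were well above background in Trsp-RIPKO alone and entered the test through it. Of 10 tested hepatocyte markers, 9 were called higher in Trsp-Ins1KO. Alb, Apoh, Fgb, Fgg, Ahsg and Cyp2e1 were well above background only in that group. They entered the test through it alone, so their calls are no support for the rest. Serpina1a, Serpina1c and Tat, well above background in every group, rose by 1.86, 1.88 and 0.39. Sums without Ttr were 2.79 to 2.98 in TrspFF, 2.53 to 2.57 in Trsp-RIPKO and 9.20 to 9.43 in Trsp-Ins1KO. Cps1 and Fga were not well above background. The 15 beta cell markers, all above background, had 6 higher and 5 lower in Trsp-Ins1KO and none higher and 6 lower in Trsp-RIPKO, with sums of 3361 to 3755, 3701 to 3956 and 5969 to 6537 in TrspFF, Trsp-RIPKO and Trsp-Ins1KO. Most of each sum came from Ins1, Ins2 and Iapp, which rose by 0.99, 0.86 and 0.83 in Trsp-Ins1KO. The 5 lower there were Slc2a2, Slc30a8, Pcsk1, Glp1r and Ero1b. Fibroblast and stellate markers had 9 of 10 higher in Trsp-RIPKO and 8 of 10 lower in Trsp-Ins1KO.

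The summed levels of endothelial and of macrophage markers stepped up in the same order of groups as Psat1 and Gpt2, though Itgam alone made up most of the macrophage sum. Of 12 endothelial markers, 5 were higher in Trsp-RIPKO, and 8 were higher and 1 lower in Trsp-Ins1KO, than in TrspFF, with summed levels of 63.4 to 64.4 in TrspFF, 77.1 to 78.0 in Trsp-RIPKO and 106.6 to 109.1 in Trsp-Ins1KO. Of 9 tested macrophage markers, 3 and 4 were higher, with sums of 143 to 145, 195 to 208 and 260 to 279 in the same order, while Cd163 and Mrc1 were not well above background. Itgam rose by 0.48 in Trsp-RIPKO and by 0.92 in Trsp-Ins1KO against TrspFF, and Csf1r by 0.49 and 0.40. Against TrspFF, Aif1 was called higher only in Trsp-RIPKO, and C1qb and C1qc only in Trsp-Ins1KO. Adgre1, Cd14, Lyz2 and C1qa were called in no comparison. Markers of alpha, delta and PP cells had 1 of 10 higher and 4 lower in Trsp-RIPKO and 6 of 10 lower in Trsp-Ins1KO, with sums of 1626 to 1645, 1120 to 1193 and 1102 to 1187. Most of each of these sums came from Gcg, Ppy, Sst and Pyy. Of 6 tested intestinal markers, 5 were called higher in each knockout, not the same 5. In Trsp-RIPKO these were Fabp1, Fabp2, Apob, Krt20 and Lct. None of them was well above background in TrspFF, and they entered the test through knockout arrays alone. Apob, Krt20 and Lct, called higher in Trsp-Ins1KO too, were not well above background in that group either. Vil1 was called higher in Trsp-Ins1KO (0.28, adjusted p = 0.0297) but not in Trsp-RIPKO (0.13, adjusted p = 0.216). The sums, most of each from Vil1, were 6.14 to 6.43, 8.17 to 8.35 and 8.07 to 8.49. Fabp1 was well above background on all 4 knockout arrays and on no TrspFF array. The 7 listed intestinal markers not well above background included Cdx1, Cdx2 and Lgr5.

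**Figure D5:**
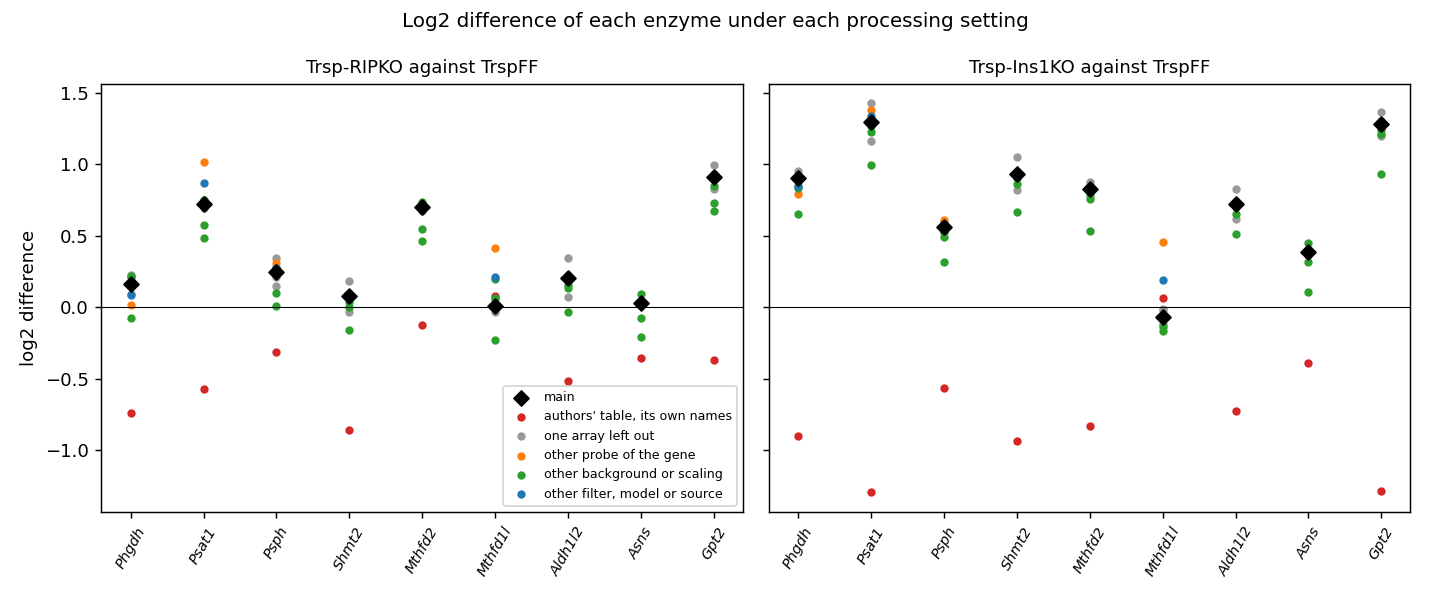
Log2 difference from TrspFF of the 9 enzymes on bright probes under each processing setting (points) and as reported (diamonds), for Trsp-RIPKO (left) and Trsp-Ins1KO (right). In Trsp-Ins1KO the 8 called enzymes stayed above 0 under every setting except the authors' table read under its own column names, where they fell below 0, as at -0.90 for Phgdh.

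How the processing bears on the enzymes is shown in the plot of settings. In Trsp-Ins1KO against TrspFF, Phgdh, Psat1, Shmt2, Mthfd2 and Gpt2 were called in every alternative fit other than the authors' table under its own names. In Trsp-RIPKO against TrspFF the same held for Mthfd2 and Gpt2. The authors' table, with each column assigned to the scan it matched, gave the directions of the scanner files for all of these.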

How the data were processed

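Per the labels' protocols, islet RNA received the dye Cy3 through a Low Input Quick Amp kit. Per the file headers, the authors read the arrays (design 026655) with Feature Extraction 10.7.3.1, and the deposited processed intensity is background-subtracted but not scaled between arrays. The authors' deposited table holds log2 values with scaling unstated, and its column medians were 0.087 and 0.141 under the name TrspFF, 0.011 and -0.029 under Trsp-RIPKO, and -0.080 and -0.045 under Trsp-Ins1KO. Of 43020 spots that were no controls, outlier spots were left out and spots of a probe averaged. RefSeq accessions named 26047 of 39426 probes (66.1%) through a GRCm38.p6 table, used for names and promoter sequence, while the array annotation rests on another build. A probe entered if every array of some group held it well above background, and a gene took its entering probe with the highest mean (23199 probes, 19021 genes). A gene well above background on no array of 1 group has only a bound, taken from the main fit and written "at least". R 4.3.3 with limma 3.58.1 (two-sided, lmFit and eBayes, 5.1 total degrees of freedom) and Python 3.11.15 were used, and the fit was tested on simulated data. The precision is limited by the number of arrays (2 a group). Of each pathway list, the genes named are up to 3 called genes that rose most and up to 3 that fell most in each comparison, plus Atf4, Ddit3, Trib3, Chac1, Mthfd1, Aldh1l1, Mthfd2l and Gpt; some results under this rule are not reported here. The members and lists were chosen with earlier results of these data known.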

Additional observations from a re-analysis of the deposited data

Results flagged for a closer look

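Trsp-Ins1KO and Trsp-RIPKO islets differed in 7 of the 9 enzymes on bright probes by the direct test between these groups, where 38.7% of all genes were called in either direction. The log2 difference, Trsp-Ins1KO minus Trsp-RIPKO, was 0.74 for Phgdh and 0.86 for Shmt2, which held with any 1 array left out. It was 0.57 for Psat1, 0.31 for Psph, 0.52 for Aldh1l2, 0.36 for Asns and 0.37 for Gpt2, whose calls were each lost without at least 1 array, as given with their levels. The slides differ between these groups, and slide and genotype cannot be told apart here. The names of the TrspFF and Trsp-Ins1KO arrays are also in doubt, as described above.

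Outside the set, the same test gave 0.63 for Atf4, 1.36 for Trib3, 1.14 for Chac1, 1.505 for Nupr1, 0.62 for Gcat, 0.66 for Cbs, 0.95 for Slc6a9, -0.72 for Mthfs, 0.71 for Gnmt, 1.06 for Folr1, -0.46 for Paics, 0.59 for Impdh1, 0.82 for Adssl1 and 0.69 for Pcx, all called with any 1 array left out. Another probe of Folr1 gave -0.59, and Mthfs turned in sign after normexp (0.014). Calls lost without at least 1 array were those of Aldh1l1 (0.34), Gpt (0.37), Dld (-0.29), Slc46a1 (0.58), Ahcyl2 (0.33, with -0.099 after normexp), Adi1 (0.60, with -0.84 on another probe), Gart (0.41), Pycrl (-0.66) and Agxt2 (0.81). Pycrl and Agxt2 lost theirs without Trsp-RIPKO array 1 or Trsp-Ins1KO array 1 and without Trsp-RIPKO array 2, respectively, Slc46a1 without Trsp-RIPKO array 1, Adi1 without either Trsp-RIPKO array, Aldh1l1 without either Trsp-RIPKO array or Trsp-Ins1KO array 1, and the others in 5 of the 6 fits (adjusted p up to 0.12).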

How the results depend on the processing

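Depth limits Shmt1 above all, whose probe was near background, and 2 arrays a group limit every value. Values are log2 differences, and the causes of the changes below were not tested. Median scaling shifted the median of all genes by -0.24 in Trsp-RIPKO against TrspFF, -0.07 in Trsp-Ins1KO against TrspFF and 0.17 between the knockouts, and normexp shifted it by 0.17 in Trsp-Ins1KO against TrspFF and 0.14 between the knockouts.

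Trsp-RIPKO against TrspFF. Signs turned after median scaling for Phgdh (-0.077), Shmt2 (-0.16), Mthfd1l (-0.22), Aldh1l2 (-0.031) and Asns (-0.21), none of them called before, and after normexp for Asns (-0.077) and Atf4 (0.33), and after quantile normalisation for Atf4 (0.032). With 1 array left out, Mthfd1l ranged from -0.034 to 0.060, Atf4 from -0.067 to 0.025, and Shmt2 from -0.032 to 0.19. Calls gained after normexp included Phgdh (0.21, adjusted p = 0.0447), Mthfd1l (0.20, adjusted p = 0.0433) and Gpt (-0.30, adjusted p = 0.00381). Psph gained one with a trended robust variance (0.25, adjusted p = 0.0367). With median scaling Atf4 (-0.26, adjusted p = 0.0469) and Gpt (-0.45, adjusted p = 0.0264) were called lower. Genes called in all numbered 6921, and 2692 without the filter on dim probes. With 1 array left out, 2 to 4 enzymes were higher, 0 to 0 lower, and 862 to 7692 genes were called. With the authors' table under its own names, 1 enzyme (Shmt1) was called higher and 7 lower, and the signs that turned, called or not, were Phgdh -0.74, Psat1 -0.57, Psph -0.31, Shmt2 -0.86, Mthfd2 -0.13, Aldh1l2 -0.52, Asns -0.36 and Gpt2 -0.37. Outside the set it gave Trib3 -1.36, Chac1 -1.14, Aldh1l1 -0.34, Slc6a9 -0.95, Gldc -0.44, Gcsh 0.0038, Ahcyl1 0.35 and Sesn2 -0.70.

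Trsp-Ins1KO against TrspFF. Mthfd1l turned to 0.19 as the mean over its probes and 0.46 on its other probe, and after normexp Mthfd2l turned to 0.018, Tyms to 0.40, Mtap to 0.30 and Prps2 to 0.34. Ddit3 gained a call as lower after normexp (-0.23, adjusted p = 0.0216). All genes called numbered 8737, 13974 after normexp and 13943 without the filter. With 1 array left out, 5 to 8 enzymes were higher, 0 to 0 lower, and 3791 to 8242 genes were called. Under the table's own names, 0 enzymes were called higher and 8 lower, and the signs that turned, called or not, were Phgdh -0.90, Psat1 -1.29, Psph -0.56, Shmt1 -0.18, Shmt2 -0.94, Mthfd2 -0.83, Mthfd1l 0.068, Aldh1l2 -0.72, Asns -0.39 and Gpt2 -1.28. Outside the set it gave Atf4 -0.61, Ddit3 0.13, Trib3 -2.20, Chac1 -1.77, Mthfd1 0.65, Aldh1l1 -1.26, Mthfd2l 0.46, Gpt -0.15, Slc6a9 -1.60, Gldc -0.94, Cbs -0.52, Mtr -0.81, Slc46a1 -0.80, Mthfs 0.93, Bhmt -3.49, Impdh1 -0.82, Paics 0.52, Glud1 -0.89, Aldh18a1 -0.78, Bcat1 -3.09, Pycrl 1.06, Glul 0.57, Dld 0.53, Gcsh 0.30, Tyms 0.62, Mtap 1.35, Ahcyl1 0.75, Enoph1 0.48, Prps2 1.03, Ppat 0.57, Gart -0.49, Adssl1 -0.51, Got2 0.39 and Nupr1 -1.96. Of these, Shmt1, Bhmt, Bcat1, Tyms, Mtap and Prps2 are fitted values against a group not well above background and measure no fold.

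Trsp-Ins1KO against Trsp-RIPKO. Normexp turned Shmt1 (0.39), Mthfd2 (-0.016), Mthfd1 (-0.095), Tdh (0.36), Tyms (0.30), Mthfs (0.014), Ahcyl2 (-0.099) and Prps2 (0.29), the mean over probes turned Adi1 (-0.12), median scaling turned Mthfd1l (0.087), and its other probe gave 0.043. The count of enzymes called lower became 0 with quantile normalisation, with probes above background on all arrays (which leaves 9 enzymes) and with a trended robust variance. Mthfd1l gained a call as lower after normexp (-0.37, adjusted p = 0.00063). All genes called numbered 7365, 12065 after normexp and 11645 without the filter. With 1 array left out, 2 to 5 enzymes were higher, 0 to 1 lower, and 4176 to 6578 genes were called. Under the table's own names, 0 enzymes were called higher and 4 lower (Psat1, Shmt1, Mthfd2 and Gpt2), and the signs that turned, called or not, were Phgdh -0.16, Psat1 -0.72, Psph -0.25, Shmt2 -0.078, Mthfd2 -0.70, Aldh1l2 -0.21, Asns -0.030 and Gpt2 -0.91, with Trib3 -0.84, Chac1 -0.63, Aldh1l1 -0.92, Dld 0.24, Slc6a9 -0.65, Mthfs 0.21, Slc46a1 -0.22, Gnmt -0.053, Bhmt -0.42 (a fitted value, no fold), Paics 0.060, Gart -0.079, Impdh1 -0.23, Pycrl 0.40 and Nupr1 -0.46.

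Over the named genes, other than the table's own names and single arrays left out, 1104 values kept direction and side of the threshold, 65 lost a call, 15 gained one and 25 turned. The main fit did not pair the arrays by the replicate numbers of their titles. Deviations of same-numbered arrays from their group means correlated at 0.093, 0.079 and 0.065, which cannot show whether the arrays were paired by design. With the replicate block, the enzymes called higher numbered 4, 8 and 6 in the 3 comparisons in the order above, Psph was lost between the knockouts (adjusted p = 0.066), and outside the set Adssl1 (0.070) and Agxt2 (0.055) were lost in Trsp-RIPKO against TrspFF and Mthfd2l (0.051) and Mtap (0.077) in Trsp-Ins1KO against TrspFF, each number an adjusted p.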

Other observations

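The genes whose pattern over the 6 arrays was most like the mean pattern of the 10 enzymes (each centred and divided by its SD) were Chst14 (Pearson r = 0.998), Dhrs3 (0.997), Wwc2 (0.995), Ackr2 (0.993) and Fam149a (0.993). Of 13356 named genes outside the set, 293 had r over 0.95, and 6 arrays in 3 groups give a pattern that many genes share. Among the enzymes themselves, each of which is part of the mean, r was 0.996 for Psat1, 0.958 for Psph, 0.955 for Gpt2, 0.941 for Mthfd2, 0.939 for Aldh1l2, 0.902 for Phgdh, 0.869 for Shmt2, 0.848 for Asns, 0.288 for Shmt1 and -0.315 for Mthfd1l.

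Ins1, the insulin gene named in Ins1-Cre, was highest on the Trsp-Ins1KO arrays. On the scale of the enzymes it read 10.24 and 10.48 in the TrspFF islets, 10.55 and 10.698 in those of Trsp-RIPKO and 11.27 and 11.41 in those of Trsp-Ins1KO. Ins2 read 10.12 and 10.25 in the TrspFF islets, 10.27 and 10.35 in those of Trsp-RIPKO and 10.98 and 11.11 in those of Trsp-Ins1KO.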
